A study of Mus musculus with 23 samples.

Results

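The clonotypes described here are the large T cell receptor beta (TRB) clonotypes of a mouse melanoma model, those that took 1% or more of the TRB counts of at least 1 library. Entries that share V segment, J segment and the amino acids of the CDR3 form a clonotype, and those with an unresolved CDR3 residue were left out. The members were chosen by their share of counts, so their number and their shares are given as a description, with no test. There were 256 such clonotypes among 35389 TRB clonotypes, or 0.723%, and they made 274 pairs of a clonotype and a library in which it was large. In those libraries they took 49.7% of all TRB counts of the series.

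The beta chain pairs with an alpha chain to form the receptor by which most T cells recognise peptides on MHC molecules. A developing T cell joins a V, a D and a J segment, with bases trimmed and added at the joints. The CDR3 spans these joints, and its middle lies over the peptide. All offspring of a T cell carry its beta chain, so a clonotype that takes a large share of a sample may come from a T cell that divided many times. RNA was measured here, so more cells and more receptor RNA per cell cannot be told apart.

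The series held 23 libraries of T cell receptor transcripts from a syngeneic model grown from NIL, a murine melanoma line with the Q61R mutation of Nras that had received ultraviolet light to raise its mutation load. All groups carried this tumour model. They were untreated (control) or given the MEK inhibitor trametinib, the RAF inhibitor BGB-283, or both drugs (combination), and were sampled at D4 or D11, counted from an event that the labels do not name. Every group had 3 libraries except control D11, which had 2. The labels name no animals, so whether libraries of 1 group are separate animals is unknown, and p-values reflect the spread between libraries, which may be technical. The table lists receptor entries alone, so the labelled tissue could not be checked against other marker genes. TRB counts ran from 32534 to 320420 per library, and an estimate of molecules, each count divided by 20 and rounded up, ran from 1749 to 18368. Every large clonotype had 345 counts and 18 estimated molecules or more. The 95% Wilson interval of a share reached at most 0.417 percentage points to either side in counts and 1.81 in estimated molecules, and covers counting error only.

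The sequences below are the CDR3 loops of clonotypes that took 20% or more of a library, and of a clonotype that was large in more libraries than any other. They show the leading expansions of the series, printed as the deposited table gives them, from the conserved cysteine to the phenylalanine that ends the loop.
TRBV16 TRBJ2-3: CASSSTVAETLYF
TRBV12-1 TRBJ2-7: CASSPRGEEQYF
TRBV16 TRBJ2-5: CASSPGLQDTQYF
TRBV19 TRBJ1-1: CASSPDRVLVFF
TRBV3 TRBJ2-7: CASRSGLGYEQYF
TRBV13-2 TRBJ1-1: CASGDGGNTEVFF

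The TRBV16 TRBJ2-3 clonotype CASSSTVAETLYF took 43.6% of the TRB counts of BGB-283 D4 replicate 2 and 2.34% of BGB-283 D11 replicate 3, and was listed in no other library. Its share in estimated molecules was 41.1% in the first of these. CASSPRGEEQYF with TRBV12-1 took 30.8% of control D4 replicate 3 and was listed nowhere else. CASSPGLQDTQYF with TRBV16 took 25.0% of control D4 replicate 2, 1.87% of control D4 replicate 3, 0.163% of combination D11 replicate 3 and 0.00656% of combination D4 replicate 2. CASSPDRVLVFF with TRBV19 took 24.1% of combination D11 replicate 3 and was listed in that library alone. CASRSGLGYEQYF with TRBV3 took 21.6% of combination D11 replicate 2, 13.0% of BGB-283 D4 replicate 3 and 4.51% of combination D11 replicate 1. These leading clonotypes thus lay in control, BGB-283 and combination libraries, and 3 of the 5 were listed in more than 1 library.

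Most members were far smaller. The median of their highest shares was 2.14%, and 118 of the 256 lay at 1% to under 2%. Of the rest, 61 reached 5% and 21 reached 10%. Just inside the threshold lay members at 1.03%, among them TRBV16 TRBJ2-4 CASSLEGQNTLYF at 1109 counts, and just outside it lay clonotypes at 0.990%, 0.987% and 0.977%. TRBV16 was the V segment of 53 members and of 9 of the 21 that reached 10%. TRBV3 was next with 33 members, and 21 V segments, 12 J segments and 111 pairs of V and J were found in all.

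Control D4 libraries held 22, 16 and 14 large clonotypes, which took 63.1%, 65.5% and 64.7% of their TRB counts. The 2 control D11 libraries held 15 and 7, which took 50.8% and 43.1%. In trametinib D4 the numbers were 9, 10 and 18 and the shares 34.1%, 39.4% and 47.5%. In trametinib D11 they were 11, 5 and 7, with shares of 30.6%, 14.8% and 17.4%, and the latter pair lay below every other library of the series. BGB-283 D4 libraries held 10, 12 and 15 at 34.0%, 64.4% and 53.7%, and BGB-283 D11 libraries 11, 6 and 15 at 51.4%, 40.02% and 71.1%. Combination D4 libraries held 16, 17 and 10 at 57.2%, 40.3% and 44.9%. Combination D11 libraries held 10, 8 and 10 at 46.0%, 51.4% and 67.9%.

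By treatment, the share in large clonotypes was 57.4% ± 9.995 (SD, n = 5) without drug, 30.6% ± 12.6 (n = 6) under trametinib, 52.4% ± 14.1 (n = 6) under BGB-283 and 51.3% ± 9.9998 (n = 6) under both. The ranges of all 4 treatments overlapped. Their numbers per library were 14.8 ± 5.36, 10 ± 4.47, 11.5 ± 3.39 and 11.8 ± 3.71 in the same order. Distinct members numbered 73 without drug, 60 under trametinib, 67 under BGB-283 and 68 under both. Libraries differed in how many TRB clonotypes they listed, from 214 to 5172. Of the TRB clonotypes listed per library, 4.42% ± 3.64, 0.749% ± 0.328, 1.28% ± 0.684 and 0.434% ± 0.264 were large, in the same order. In estimated molecules, large clonotypes took 54.6%, 27.0%, 48.8% and 43.9% of a library. The drop from counts to molecules was widest in combination libraries.

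**Figure D1:**
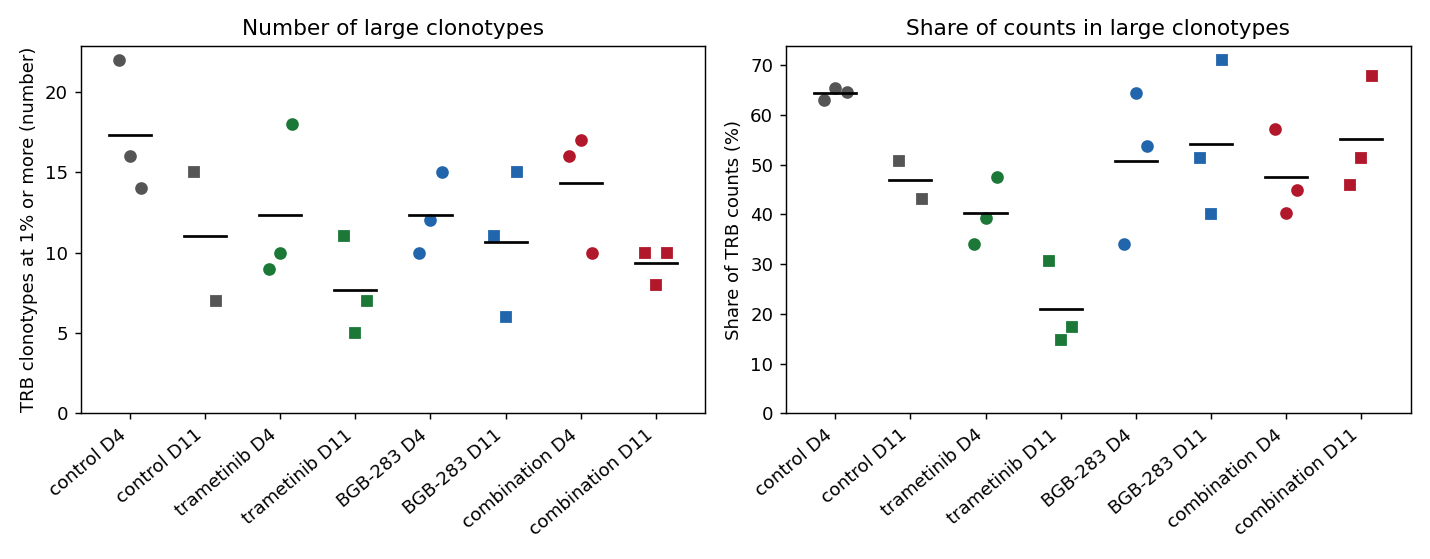
Number of TRB clonotypes at 1% or more of a library (left, number) and the share of TRB counts they took (right, %), with 1 point per library and a bar at the group mean (circles D4, squares D11). Control D4 libraries lie between 63.1% and 65.5%, and trametinib D11 libraries between 14.8% and 30.6%.

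The alpha chain gave a measure that did not enter the choice of members. TRA clonotypes at 1% or more of TRA counts took 56.9% ± 11.4 (SD, n = 5) of TRA counts in control libraries. They took 38.1% ± 11.4 with trametinib, 60.5% ± 8.35 with BGB-283 and 55.3% ± 7.03 with both drugs (n = 6 each). Across the 23 libraries the share of large TRB and of large TRA clonotypes rose together, with a Pearson r of 0.915 and a Spearman rho of 0.894. Without the 2 libraries farthest from the median TRB share r was 0.855 (n = 21), and after subtraction of the group means it was 0.815. These values are a description, with no test, since the TRB shares chose the members. Both chains come from the same RNA and library.

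**Figure D2:**
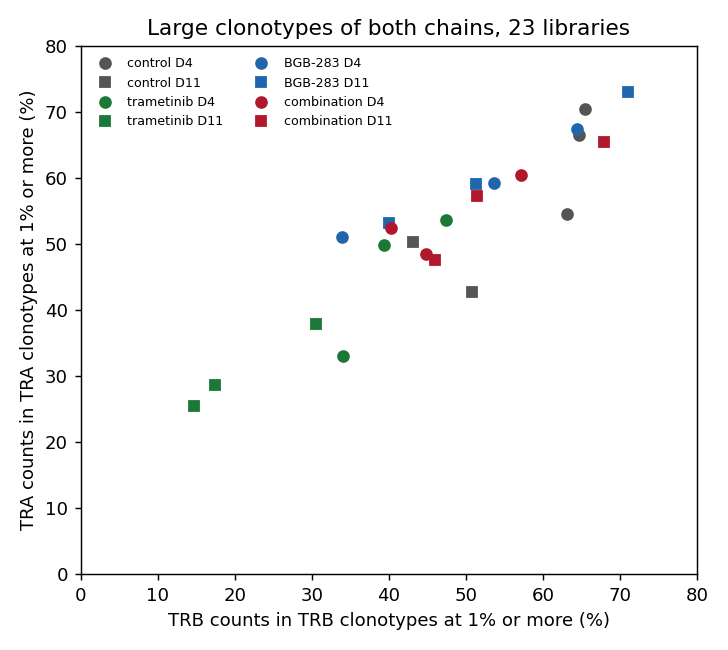
Share of TRA counts in TRA clonotypes at 1% or more (vertical, %) against the share of TRB counts in TRB clonotypes at 1% or more (horizontal, %), 1 point per library, colours by treatment (circles D4, squares D11). Trametinib D11 replicates 2 and 3 lie lowest on both axes, at 14.8% and 17.4% for TRB and 25.5% and 28.6% for TRA.

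J segment use was compared between the large clonotypes and the other TRB clonotypes of the same library, each clonotype counted once. A two-sided sign-flip permutation test over the 23 libraries was used, with Benjamini-Hochberg adjustment over the 12 TRBJ segments. TRBJ2-5 was the J segment of 24.5% ± 14.6 of large and 11.8% ± 1.59 of other clonotypes (SD over 23 libraries). It was higher among large clonotypes in 21 of 23 libraries, by 12.8 percentage points on average (adjusted p = 0.000300, permutation test). TRBJ2-1 was lower among them, at 6.85% ± 6.33 against 14.3% ± 1.59 (-7.42 points, 21 of 23 libraries, adjusted p = 0.000300, permutation test). TRBJ2-4 was lower as well, at 4.72% ± 6.40 against 8.58% ± 1.08 (-3.86 points, 19 of 23 libraries, adjusted p = 0.0328, permutation test).

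These 3 of 12 segments, 25% of those tested, were all that passed; without control D11 replicate 1 there were 5, and without BGB-283 D11 replicate 2 there were 6. The TRBJ2-4 call ended when control D4 replicate 3, trametinib D4 replicate 1 or 2, trametinib D11 replicate 1 or 2, or any of replicate 1 of BGB-283 D4 and replicates 1 and 3 of BGB-283 D11 was left out (-3.71 to -3.55 points, adjusted p = 0.0508 to 0.0567, permutation test). It also ended with other thresholds for a large clonotype, at -1.41 points for 0.5% (adjusted p = 0.291, permutation test) and -3.39 points for 2% (adjusted p = 0.0756), against others of 20 counts or more (-3.63 points, adjusted p = 0.0702), and with every member counted wherever listed (-2.18 points, adjusted p = 0.1003). TRBJ1-4 lay higher in 17 of 23 libraries without passing (10.1% against 6.89%, adjusted p = 0.0826, permutation test). TRBJ2-7, found in 48 members, was used by 18.8% of large and 20.2% of other clonotypes. The J1 and J2 clusters, the sets of TRBJ1 and of TRBJ2 segments, did not differ past the threshold. The TRBJ2 cluster held 183 of 256 members, and 70.2% ± 17.2 of large against 69.7% ± 1.57 of other clonotypes (0.501 points, adjusted p = 0.885, permutation test).

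**Figure D3:**
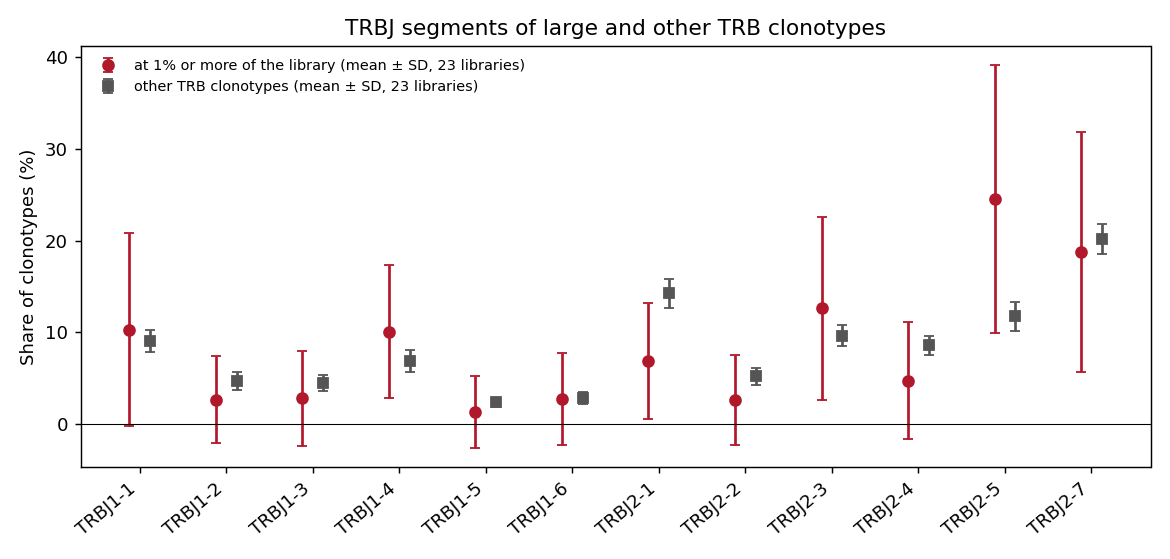
Share of clonotypes with each TRBJ segment (%), among large clonotypes (circles) and the other TRB clonotypes of the same library (squares), as mean ± SD over 23 libraries. TRBJ2-5 stands at 24.5% against 11.8% and TRBJ2-1 at 6.85% against 14.3%. The spread is wider among large clonotypes, of which a library holds 5 to 22.

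V segments were compared in the same way over 24 TRBV segments, of which 6, again 25%, passed. Of these, TRBV21, TRBV22 and TRBV24 passed with 0 large clonotypes. TRBV29 was used by 3.16% ± 5.41 of large and 13.2% ± 2.49 of other clonotypes, lower in 21 of 23 libraries (-10.1 points, adjusted p = 0.000240, permutation test). In all, 8 large clonotypes carried it, where the shares of the other clonotypes would give 35.0. The median of the highest shares of those 8 was 3.10%, against 2.14% over all members, and 2 of them reached 10%. TRBV16 was used by 21.7% ± 11.5 of large and 15.4% ± 2.24 of other clonotypes (6.29 points, higher in 14 of 23 libraries, adjusted p = 0.0334, permutation test).

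The TRBV16 call did not hold without any 1 of 10 libraries (5.44 to 6.21 points, adjusted p = 0.0502 to 0.0658, permutation test). These were control D4 replicates 2 and 3, trametinib D4 replicates 2 and 3, trametinib D11 replicates 1 and 2, BGB-283 D4 replicates 2 and 3, BGB-283 D11 replicate 3 and combination D11 replicate 2. It also ended with a threshold of 0.5%, where the difference was 1.63 points (adjusted p = 0.5258, permutation test), with a threshold of 2% (5.30 points, adjusted p = 0.238) and in estimated molecules (6.16 points, adjusted p = 0.0578). The remaining calls were TRBV21, TRBV22, TRBV24 and TRBV31, for which the other clonotypes' shares would give 0.0786, 0.0971, 0.251 and 2.32 large clonotypes. TRBV31, with 1 large clonotype, was used by 0.198% of large and 0.830% of other clonotypes (adjusted p = 0.0334, permutation test). Its call ended in 11 of the 23 analyses without 1 library (-0.633 to -0.588 points, adjusted p = 0.0502 to 0.0658, permutation test). For TRBV21, TRBV22 and TRBV24, with 0 large clonotypes, no difference above 0 could arise. Their p rested on the 8, 9 and 15 libraries that listed them among the other clonotypes. The calls on TRBV21, TRBV22 and TRBV24 therefore give no information about large clonotypes. The count of 6 fell to 2 or 3 without control D4 replicate 2 or 3, trametinib D4 replicate 2, trametinib D11 replicate 1 or 2, or combination D11 replicate 2. Among the 15 segments for which those shares would give 5 or more, a limit chosen after the data were seen, TRBV29 alone passed, and TRBV16 had an adjusted p of 0.0627 (permutation test).

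Lists of V segments were compared by shares pooled over all libraries, without a test. The Vbeta8 family, TRBV13-1 to TRBV13-3, was used by 25 members (9.77%) against 11.4% of all TRB clonotypes. As means over libraries the sign was the opposite, with 10.7% ± 9.57 of large and 10.2% ± 2.21 of other clonotypes (SD). The beta segments known from invariant natural killer T cells, which add TRBV29 and TRBV1 to that family, were used by 43 members (16.8%) against 30.2% of all. TRBV29, described above, made the widest part of this gap, at 3.1% of members against 13.2% of all. TRBV1 (3.91% against 5.54%) and TRBV13-2 (3.52% against 5.92%) were lower as well. TRBV13-1 (2.73% against 2.45%) and TRBV13-3 (3.52% against 3.05%) were higher. TRBV12-1, TRBV12-2, TRBV15 and TRBV26, which are some but not all of the segments known to respond to viral superantigens in mice, were used by 37 members (14.5%) against 17.1%.

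The CDR3 of large clonotypes was compared by length, net charge and hydropathy, in a family of 7 measures adjusted together. Length averaged 13.8 ± 0.445 residues among large and 13.97 ± 0.0923 among other clonotypes (-0.182, shorter in 15 of 23 libraries, adjusted p = 0.0446, permutation test). Members of 13 residues numbered 77 (30.1%, against 20.2% of all TRB clonotypes), and 3 members had 17 residues (1.17% against 2.93%). Net charge, the lysines and arginines minus the aspartates and glutamates, averaged -0.826 ± 0.237 against -0.679 ± 0.0336 (-0.147, 17 of 23 libraries, adjusted p = 0.0109, permutation test). Hydropathy on the Kyte-Doolittle scale, without the first and last 3 residues, averaged -1.27 ± 0.213 against -1.15 ± 0.0351 (-0.122, 15 of 23 libraries, adjusted p = 0.0109, permutation test). Large clonotypes thus had CDR3 loops that were shorter, more acidic and more polar on average than those of the other clonotypes, by less than 1 residue and less than 1 charge.

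The length call held in 9 of the 23 analyses without 1 library, those without control D11 replicate 1 or 2, trametinib D4 replicate 2 or 3, trametinib D11 replicate 2, combination D11 replicate 1, or replicates 2 and 3 of BGB-283 D4 and replicate 2 of BGB-283 D11, each on its own. In the other 14 the difference ran from -0.186 to -0.151 (adjusted p = 0.0509 to 0.0872, permutation test). With clonotypes of 2% or more as large, the hydropathy difference turned to 0.00656, and with medians in place of means the charge difference turned to 0.0435.

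The other clonotypes are mostly small, so the large ones were also set against clonotypes at 0.1% to under 1% of the same library. There were 274 pairs of a clonotype and a library at 1% or more, 2568 at 0.1% to under 1% and 34354 below. TRBJ2-5 stood at 24.5%, 17.3% and 11.3% in these classes, and TRBV29 at 3.16%, 5.59% and 14.5%. TRBV16 stood at 21.7%, 13.8% and 16.2%. Between the upper classes none of the 12 J and none of the 24 V segments passed, with TRBJ2-5 7.24 points higher (adjusted p = 0.102, permutation test), TRBV29 lower (-2.44 points, adjusted p = 0.390) and TRBV16 7.97 points higher (adjusted p = 0.192).

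Net charge was -0.826 in both upper classes and -0.670 below 0.1%. The difference between the upper classes was -0.000251 (adjusted p = 0.996, permutation test). Hydropathy was -1.27, -1.26 and -1.14, and length 13.8, 13.9 and 13.98 residues (differences between the upper classes -0.00865 and -0.0733, adjusted p = 0.996 and 0.682, permutation test). The calls on charge, hydropathy and length therefore applied to the contrast with all other clonotypes and not to that with the next smaller class.

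**Figure D4:**
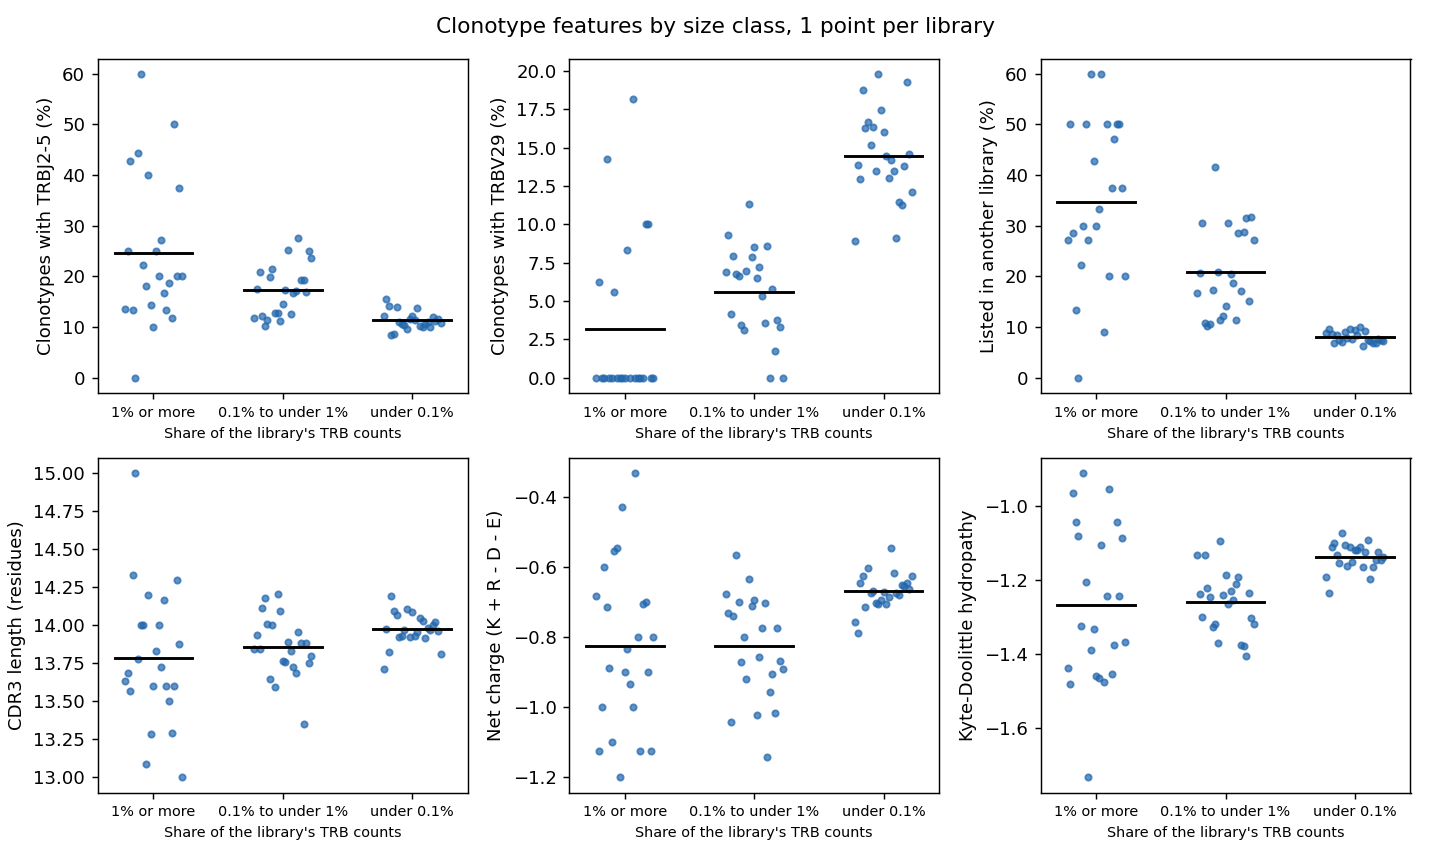
Share of clonotypes with TRBJ2-5, with TRBV29 and listed in another library (top, %), and mean CDR3 length (residues), net charge and hydropathy (bottom), for 3 classes of share of the library's TRB counts, with 1 point per library and a bar at the mean over 23 libraries. TRBJ2-5 stands at 24.5%, 17.3% and 11.3% from the largest to the smallest class, and net charge at -0.826, -0.826 and -0.670.

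Of the 256 members, 179 were listed in 1 library alone and 77 in more, which is 30.1% against 3.63% of the other TRB clonotypes. These shares are a description, since a clonotype listed in more libraries had more chances to become a member. Within a library, 34.6% ± 16.2 of large clonotypes were also listed in another library, against 9.18% ± 1.61 of the others (25.4 points, higher in 21 of 23 libraries, adjusted p = 4.67e-05, permutation test). Against clonotypes at 0.1% to under 1% the difference was 13.8 points (adjusted p = 0.00198, permutation test). For large clonotypes alone, control libraries (n = 5) gave 23.8% ± 18.7. Each drug group had 6 libraries, which gave 38.7% ± 14.7 with trametinib, 33.7% ± 18.8 with BGB-283 and 40.3% ± 11.5 with both drugs. Depth differed as well, with mean TRB counts per library of 85266 in control, 124223 with trametinib, 142686 with BGB-283 and 242013 with both. Of the 21 members that reached 10%, 7 were listed in more than 1 library.

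Where a member was listed at under 1%, which occurred 187 times, it had a median of 168 counts and a median rank of 76. It stood among the 100 largest TRB clonotypes of that library in 100 of these cases, and had 20 counts or fewer in 23. Members therefore often stood well above the lowest counts when they reappeared. Counts of 20 or fewer may be single molecules, and carry-over of reads between libraries was not tested.

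In all, 242 members were large in 1 library, 11 in 2, 2 in 3 and 1 in 4. The clonotype large in 4 was TRBV13-2 TRBJ1-1 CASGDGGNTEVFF, which was listed in 15 of 23 libraries. It took 1.99% of combination D4 replicate 1, 1.43% of trametinib D4 replicate 3, 1.08% of control D4 replicate 1 and 1.01% of combination D11 replicate 1. In the other 11 libraries that listed it, its share ran from 0.0255% to 0.736%, so it was present under every treatment.

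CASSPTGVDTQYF with TRBV16 and TRBJ2-5 was large in each of the 3 libraries that listed it, at 8.39% of combination D11 replicate 2, 5.27% of combination D4 replicate 3 and 2.72% of control D4 replicate 1. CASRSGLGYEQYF with TRBV3, given above, was the other clonotype that was large in 3. TRBV19 TRBJ2-4 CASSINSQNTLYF was listed in 13 libraries and was large in BGB-283 D4 replicate 3 (2.73%) and combination D4 replicate 2 (1.11%). In its other 11 libraries it took 0.0477% to 0.484%.

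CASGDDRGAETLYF with TRBV13-2 and TRBJ2-3 took 13.8% of combination D11 replicate 1 and 1.92% of control D4 replicate 2. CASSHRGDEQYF with TRBV12-2 took 8.46% of combination D4 replicate 1 and 2.61% of trametinib D11 replicate 1. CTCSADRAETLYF with TRBV1 took 5.45% of trametinib D4 replicate 3 and 1.63% of combination D4 replicate 2. Of the 14 clonotypes large in 2 or more libraries, 11 were large under more than 1 treatment, 9 on both days and 8 in both respects. Another 2 were large in libraries of 1 treatment and day alone. Most pairs of libraries in the series join different treatments, so these counts are not set against what the design alone would give.

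Other members recurred widely but were large in a single library. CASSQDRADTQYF with TRBV2 and TRBJ2-5 was listed in 12 libraries and took 5.76% of trametinib D4 replicate 3 but at most 0.679% elsewhere. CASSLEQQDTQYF with TRBV12-2 was listed in 12 as well and took 1.19% of trametinib D4 replicate 1. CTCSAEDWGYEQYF with TRBV1 was listed in 9 and took 2.33% of BGB-283 D4 replicate 1.

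**Figure D5:**
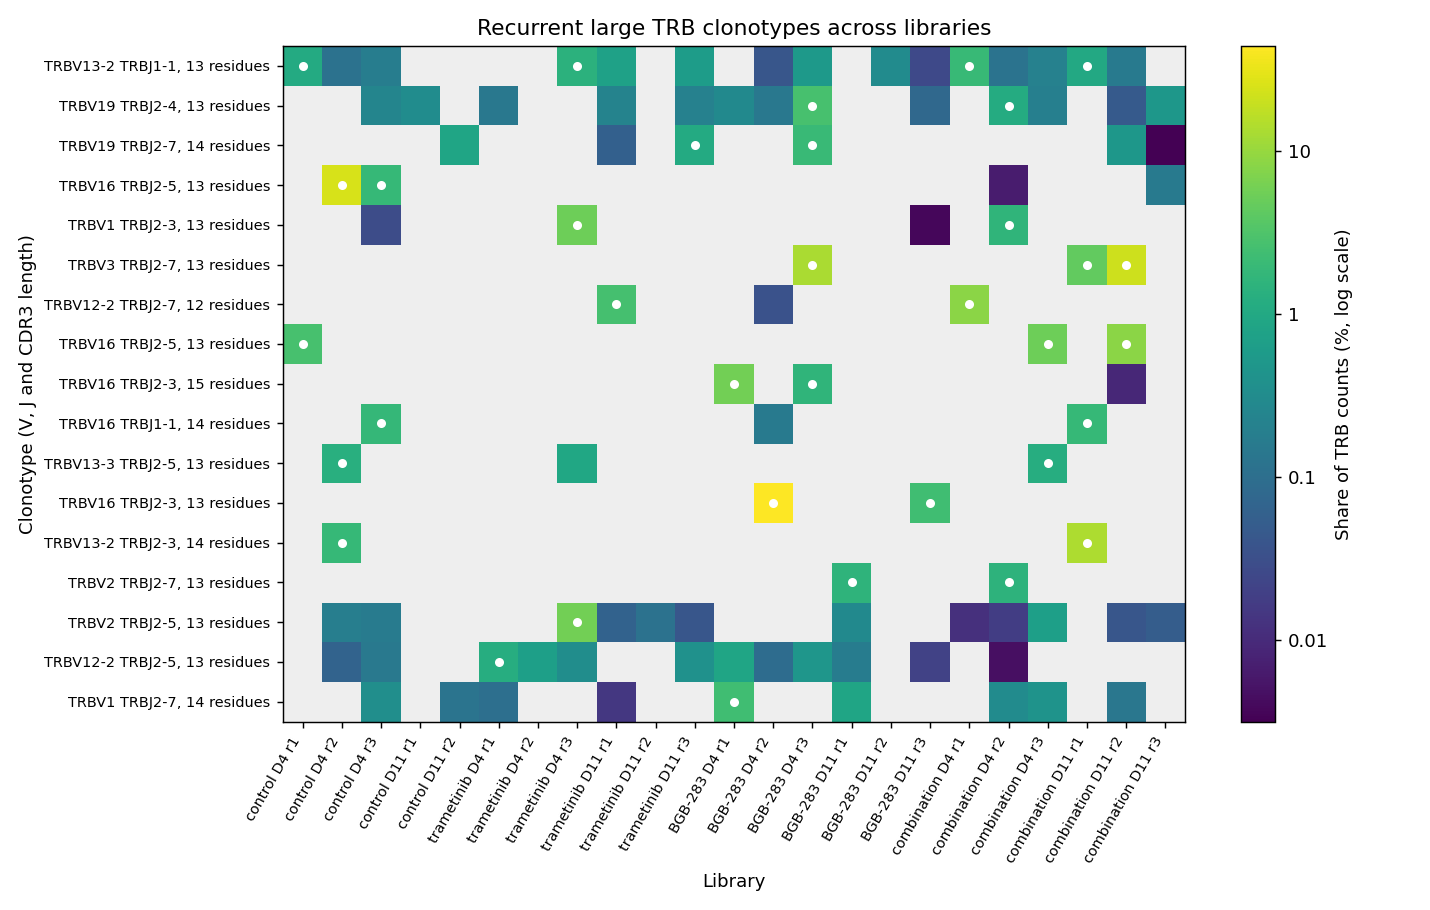
Share of TRB counts (%, log colour scale) of the 17 members that were large in 2 or more libraries or among the 5 listed in the most libraries, by library (r1 to r3 are replicates). White dots mark shares of 1% or more and grey marks libraries that do not list the clonotype. The TRBV13-2 TRBJ1-1 clonotype in the top row is listed in 15 libraries and is large in 4.

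Recurrence was compared within and between treatments over pairs of libraries. A library's large clonotypes were listed in 4.70% of cases in another library of the same treatment and in 4.65% in a library of another treatment. The difference of 0.0510 percentage points did not pass (p = 0.861, permutation test of treatment labels within each day). The sign of this difference depended on the setting. For the other TRB clonotypes the shares were 0.739% and 0.775%. Treatment and day were also tested against the difference between large and other clonotypes in length, charge, hydropathy, TRBJ2 share and listing elsewhere. None of these 10 tests passed, and none had an unadjusted p under 0.05 (adjusted p = 0.611 to 0.993, permutation tests). The lowest unadjusted p was 0.160, for listing elsewhere between treatments, where treatment took 24.3% of the variance within days.

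Members also resembled each other across libraries. Members were called neighbours when they had the same V, J and length and differed at 1 residue. There were 34 such pairs, which joined 45 members (17.6%) into 18 families, and in 31 of the pairs the members had their highest shares in different libraries. Of 138 pairs of members with the same V, J and length and different largest libraries, 31 (22.5%) were 1 residue apart. The same figure was 1.15% for the other TRB clonotypes and 2.88% for those of them with 100 counts or more in a library. In 23 of the 34 pairs the difference fell at position 5, counted from the conserved cysteine as position 1, near the joint of V and D. Pairs of the same family share members, so the 23 are not independent. Whether pairs of other TRB clonotypes differ as often at this position was not tested. Members of 5 families, picked after their values were seen, are shown for the residues they share: the 3 families of 4 or more members, that with TRBV19 in part, and those of the clonotypes that reached 25.0% and 30.8%.
TRBV16 TRBJ2-5, control D4: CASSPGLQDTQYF
TRBV16 TRBJ2-5, trametinib D4: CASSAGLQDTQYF
TRBV16 TRBJ2-5, combination D11: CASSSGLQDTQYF
TRBV12-1 TRBJ2-7, control D4: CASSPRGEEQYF
TRBV12-1 TRBJ2-7, combination D4: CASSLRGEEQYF
TRBV19 TRBJ2-7, combination D4: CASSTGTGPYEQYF
TRBV19 TRBJ2-7, trametinib D4: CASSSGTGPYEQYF
TRBV13-3 TRBJ2-5, trametinib D4: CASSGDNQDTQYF
TRBV13-3 TRBJ2-5, BGB-283 D4: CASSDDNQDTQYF
TRBV13-3 TRBJ2-5, BGB-283 D11: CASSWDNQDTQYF
TRBV13-3 TRBJ2-5, control D4: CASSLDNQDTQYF
TRBV3 TRBJ1-4, control D4: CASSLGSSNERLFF
TRBV3 TRBJ1-4, trametinib D4: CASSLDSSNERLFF
TRBV3 TRBJ1-4, control D4: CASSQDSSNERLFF
TRBV3 TRBJ1-4, BGB-283 D11: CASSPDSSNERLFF

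In the TRBV16 TRBJ2-5 family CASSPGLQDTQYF reached 25.0% of control D4 replicate 2, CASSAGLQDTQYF 11.2% of trametinib D4 replicate 2 and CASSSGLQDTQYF 1.67% of combination D11 replicate 3. The first differs from the others by P5A and P5S. In the TRBV12-1 pair, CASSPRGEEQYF reached 30.8% of control D4 replicate 3 and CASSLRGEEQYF, which L5P turns into the former, 8.37% of combination D4 replicate 2. The latter also took 0.991% of BGB-283 D11 replicate 1 and 0.915% of trametinib D4 replicate 3, just under the threshold. These families thus held leading clonotypes of libraries from different treatments.

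The 5 TRBV19 TRBJ2-7 members of 14 residues, of which a pair is shown, reached 1.72% to 4.08%, the highest being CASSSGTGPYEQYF in trametinib D4 replicate 3. The 4 TRBV13-3 TRBJ2-5 members reached 1.30% to 4.11%, with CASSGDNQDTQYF of trametinib D4 replicate 2 highest. The 4 TRBV3 TRBJ1-4 members reached 1.21% to 9.09%, with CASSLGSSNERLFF of control D4 replicate 2 highest.

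Near-identical clonotypes in other libraries were counted for all clonotypes to give a tested comparison. For a large clonotype, on average 12.2% ± 5.41 of the other libraries held a neighbour, against 5.19% ± 0.805 for the other clonotypes of its library (6.97 points, 21 of 23 libraries, adjusted p = 3.50e-05, permutation test). Against clonotypes at 0.1% to under 1% the difference was 4.21 points (adjusted p = 0.00198, permutation test). Libraries that listed the clonotype itself were counted as well, and large clonotypes were listed elsewhere more often (34.6% against 9.18%). Whether the difference in neighbours goes beyond this recurrence was not tested. Within their own library, 90.5% ± 17.8 of large clonotypes had a neighbour, against 23.1% ± 4.52 of the others (67.4 points, 23 of 23 libraries). This gap is a description, since members were chosen by counts and the number of own neighbours rose with counts. In control D4 replicate 1, with 34553 TRB counts, the shares were 36.4% and 26.6%.

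The 1733 neighbours of large clonotypes within their own library were mostly small. Of them, 1356 had 20 counts or fewer, their median was 0.113% of the large clonotype's counts, and 10 were themselves large. Their number rose with the counts of the large clonotype, from a mean of 1.25 below 2000 counts to 4.41, 7.32 and, at 10000 counts or more, 18.8. Across the 274 pairs of clonotype and library, Spearman rho was 0.876, given as a description since clonotypes of a library share its depth. Sequencing error as their source was not tested.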

How the data were processed

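Per the labels' protocols, T cell receptor libraries were made from RNA with a QIAseq Immune Repertoire kit. The authors deposited unscaled counts for each chain, V, J and CDR3. GRCh38, which is human, is the assembly in the submitters' processing notes, although the samples are mouse. Neither aligner nor caller is given in the sources used here. Of the alpha, beta, gamma and delta chains in the labels, TRA and TRB entries were used. No entry is below 3 counts, and values pile up at 20 (2024 TRB values, against 471 at 19 and 309 at 21), so molecules were estimated as counts divided by 20, rounded up. Equal counts may be unequal molecules. In all, 182 TRB entries with an unresolved residue (0.0421% of counts) were left out. All 24 TRBV and 12 TRBJ names matched mouse gene symbols.

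Tests used 100000 permutations or sign flips in Python 3.11.15 with numpy 2.4.6 and scipy 1.17.1, with a threshold of 0.05 after Benjamini-Hochberg adjustment, and were tested on simulated data. Clonotypes named are the largest of libraries, those large in 2 or more libraries, the 5 listed in the most libraries, pairs 1 residue apart and those nearest the threshold. Segments named are those past the threshold, with TRBJ1-4 and TRBJ2-7 added after their values were seen. CDR3 sequences of 15 or more residues are not printed. Members, lists and tests were chosen with earlier results of these data known.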

Additional observations from a re-analysis of the deposited data

Results flagged for a closer look

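In 40 sets of 5 or 6 libraries of a treatment, the extreme library was compared with the rest, and 2 stood apart. Chance alone sets about 5 in 100 such sets apart.

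The largest TRB clonotype of BGB-283 D4 replicate 2, TRBV16 TRBJ2-3 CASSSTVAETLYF, took 43.6% of its counts. The next highest among the 6 BGB-283 libraries was 18.3%.

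In BGB-283 D11 replicate 2 the share of TRBJ2 segments was 35.8 points lower among large than among other clonotypes (-35.8). The nearest of the other BGB-283 libraries stood at -4.47. This library held 6 large clonotypes, among them the TRBV12-1 TRBJ1-3 clonotype at 18.3%.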

How the results depend on the processing

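Greater listing in other libraries and more neighbours there kept their calls under every alternative run for them. So did TRBJ2-5, TRBJ2-1 and TRBV29, except against clonotypes at 0.1% to under 1%. That comparison took the length difference to -0.0733, charge to -0.000251 and hydropathy to -0.00865, and left 0 J and 0 V segments called. With a threshold of 2% length was -0.132 and hydropathy turned to 0.00656; with others of 20 counts or more length was -0.156; with medians length was -0.239, hydropathy -0.0802 and charge 0.0435. Counting every member wherever listed gave 6 J segments, and V segments with 5 or more expected gave 1. The same-treatment difference in sharing turned to -0.295 at 0.5%, -0.0579 at 2%, -0.266 in molecules, -0.321 with every member and -0.119 after thinning. The causes of these shifts were not tested. By construction, a threshold of 0.5% gave 28.4, 22.7, 21 and 20.2 large clonotypes per control, trametinib, BGB-283 and combination library, and 2% gave 7.6, 4.83, 6.33 and 6.5, with 47.1% of counts in control. Without 1 library in turn, length ran from -0.230 to -0.151, the TRBJ2 difference from -0.843 to 2.30 points, sharing from -0.305 to 0.387, J segments called from 2 to 6 and V from 2 to 7. Listing elsewhere was not run with every member, since recurrence then enters the choice.

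The replicate numbers share no stated origin, and libraries with the same number did not deviate together: correlations averaged -0.0422 (-0.565 to 0.571) and all exceeded 0.1 in 1 of 28 group pairs. With the replicate block, treatment took 30.5% of the variance in listing elsewhere (adjusted p = 0.627, permutation test), and no call changed.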

Other observations

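The same CDR3 occurred among members with different V segments in a pair of cases. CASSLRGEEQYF was large with TRBV12-1 (8.37% of combination D4 replicate 2) and with TRBV12-2 (1.74% of BGB-283 D11 replicate 3). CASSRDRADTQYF was large with TRBV17 (5.24% of BGB-283 D11 replicate 2) and with TRBV2 (1.964% of trametinib D4 replicate 3).

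BGB-283 D4 replicate 3 and combination D11 replicate 2 shared more TRB counts than any other pair of libraries, at 14.04% when the lower share of each clonotype is summed. They had 43 clonotypes in common, of which 1, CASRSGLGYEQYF with TRBV3, was large in both.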
